A study of Mus musculus with 72 samples.

Results

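Pancreatic islets of BALB/cJ mice on regular chow (RC) were compared with islets of DBA/2J mice on RC, over all 14604 genes of the deposited table. The 12 BALB/cJ libraries comprised 4 each at days 5, 13 and 33, and the 11 DBA/2J libraries comprised 4 at day 5, 4 at day 13 and 3 at day 33, out of 69 libraries with values in the series. The days are feeding periods as the sample labels give them. Every mouse was a male of an inbred strain, described as 8 weeks old, and carried no transgene or deletion by its labels. Each library held the RNA of hand-picked islets of 1 mouse, freed from the pancreas with Liberase and kept overnight in culture medium, which makes the mouse the unit of every p-value here. The other libraries of the series came from the same strains on a high-fat diet (HFD) and from C57BL/6J mice on both diets. BALB/cJ and DBA/2J mice on HFD, 12 and 11 libraries, served as a separate set of mice for the same strain comparison, and C57BL/6J values on RC are given where they place a level.

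Islets hold insulin-secreting beta cells, glucagon-secreting alpha cells, somatostatin-secreting delta cells and smaller numbers of PP and epsilon cells, which make pancreatic polypeptide and ghrelin. BALB/cJ is an albino strain and DBA/2J is the strain named for its dilute, brown and non-agouti coat, and the genomes of the strains differ at many inherited sites. Both carry the d haplotype of the mouse MHC (H2), so class I and class II genes are shared between them more than in most strain pairs. Reads were aligned to a C57BL/6J genome, the genome of neither strain, so a level in either strain can also depend on how many sequence differences its transcript carries. The part of that in the differences given here was not tested.

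Each library held between 12984004 and 34591079 reads in the 14604 genes (median 21631182). Levels are log2 CPM, the log2 of reads scaled by the authors to a common library size, and a difference is the BALB/cJ minus the DBA/2J level on that scale. The first principal component of the 23 libraries carried 54.0% of the variance and separated the strains without overlap, with BALB/cJ libraries at 30.6 to 38.3 and DBA/2J libraries at -40.2 to -34.9. The insulin genes Ins1 and Ins2 took 16.1%, 20.2% and 22.6% of the reads in BALB/cJ islets (lowest, median and highest library), against 14.6%, 16.8% and 22.9% in DBA/2J islets. The mean difference of 1.98 percentage points did not pass an exact permutation test within days (two-sided p = 0.0653). Nor did the share of the mitochondrially encoded genes, at 2.27% ± 0.248 in BALB/cJ and 2.34% ± 0.4 in DBA/2J islets (SD, exact permutation p = 0.628). The labels give no extraction or sequencing batch, so strain and any batch that followed it cannot be told apart.

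Some libraries stood apart from others with the same label. Among the 24 BALB/cJ libraries of both diets, 7 had a low level of Pla2g5, which encodes a secreted phospholipase A2, and a high level of its chromosomal neighbour Otud3, a deubiquitinase. These were day 5 replicates 3 and 4 and day 13 replicate 4 on RC, and day 5 replicates 3 and 4 and day 13 replicates 3 and 4 on HFD. In them Pla2g5 lay between -1.66 and -0.29 log2 CPM and Otud3 between 3.22 and 3.53, against 3.35 to 3.83 for Pla2g5 and -1.38 to 0.44 for Otud3 in the other 17. For these genes the DBA/2J libraries on RC resembled the 7, with Pla2g5 at -1.79 to -0.36 and Otud3 at 3.09 to 3.83 log2 CPM. With a gap of at least 1 log2 unit and no library between, 10 genes on 7 chromosomes separated exactly these 7 libraries from the 17, and 5 did so with a gap of at least 2. Cntnap5b, a contactin-associated gene of chromosome 1, was at -3.54 to -2.89 in the 7 and at 1.4 to 2.81 in the 17, and here the DBA/2J libraries on RC, at 0.09 to 2.05, were unlike the 7. Mcoln3 on chromosome 3, Slc9a9 on chromosome 9, the neighbours Zfp433 and Gm3055 on chromosome 10 and Cyp4f39 on chromosome 17 followed the same division. For Slc9a9, too, the DBA/2J libraries (3.29 to 3.68) lay by the 17 (3.41 to 3.76) and not by the 7 (0.88 to 1.97). The division also follows the labels: the code in the sample title ends in a higher number in each of the 7 than in any of the 17. The labels do not say what these numbers stand for, and whatever they mark cannot be told apart from the division, which was noticed after the values had been seen. Without the 7 libraries, 4755 genes were called between the strains on RC in place of 5113, and 4370 of them were among the 5113, none with the opposite sign. In the same way, 6 of the 7 DBA/2J libraries at day 13 had a higher level of Gm14403 than the other 16 DBA/2J libraries. A list of lymphocyte markers was highest in 1 BALB/cJ library (day 13 replicate 4, mean 3.85 log2 CPM) and 1 DBA/2J library (day 5 replicate 4, mean 4.07). Without these 2 libraries, 4828 genes were called.

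**Figure D1:**
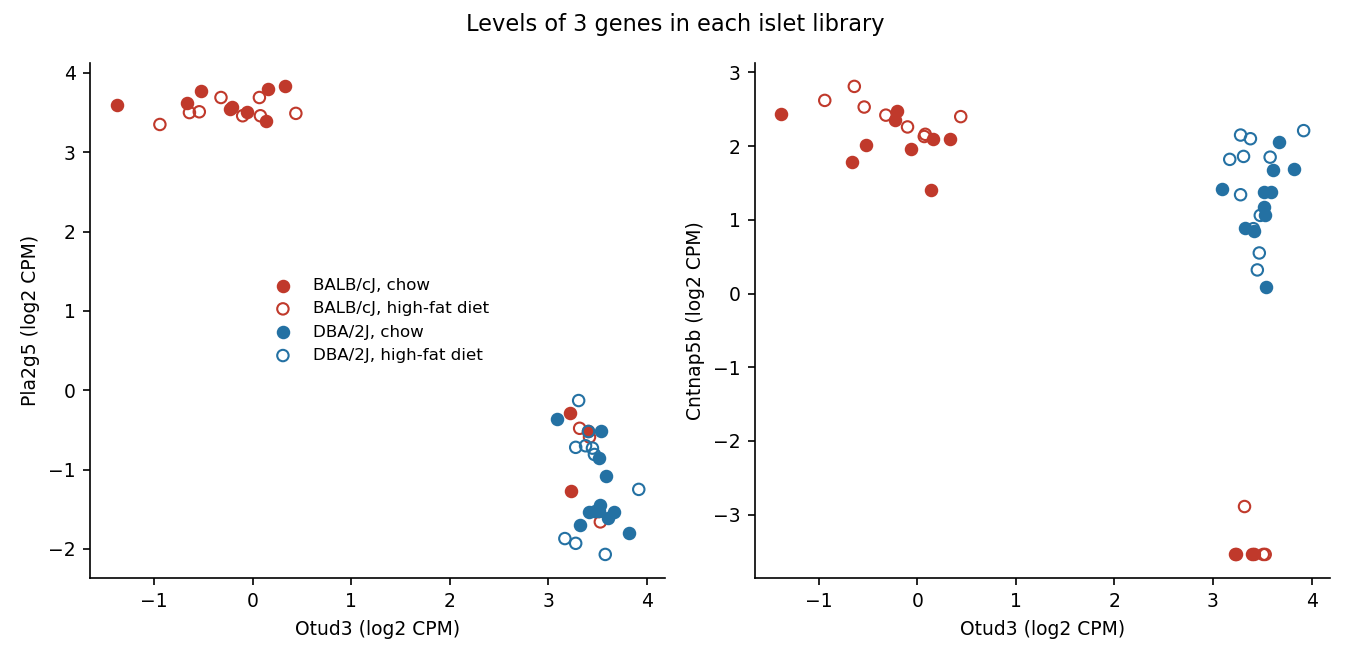
Levels of Otud3 (log2 CPM, horizontal) against those of Pla2g5 (left panel) and Cntnap5b (right panel) in each library of BALB/cJ and DBA/2J islets, with filled points for RC and open points for HFD. In BALB/cJ, 7 libraries have Otud3 at 3.22 to 3.53 and the other 17 have it at -1.38 to 0.44, with none between.

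By limma with Benjamini-Hochberg adjustment, 5113 of the 14604 genes (35.0%) differed between BALB/cJ and DBA/2J islets averaged over the 3 days, at an adjusted p under 0.05. Of these, 2534 (17.4%) were higher in BALB/cJ and 2579 (17.7%) lower. Most differences were small: 3216 of the called genes differed by under 0.5 on the log2 scale, and the median size over called genes was 0.37. Another 707 (4.84%) differed by at least 1, with 352 (2.41%) higher and 355 (2.43%) lower in BALB/cJ, and 112 by at least 3. In 420 genes (2.88%) every BALB/cJ library lay above every DBA/2J library, and in 527 (3.61%) every one lay below. Of the 112 genes with a difference of 3 or more, 41 were protein-coding genes with an established symbol, and the other 71 were pseudogenes, non-coding or predicted genes.

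**Figure D2:**
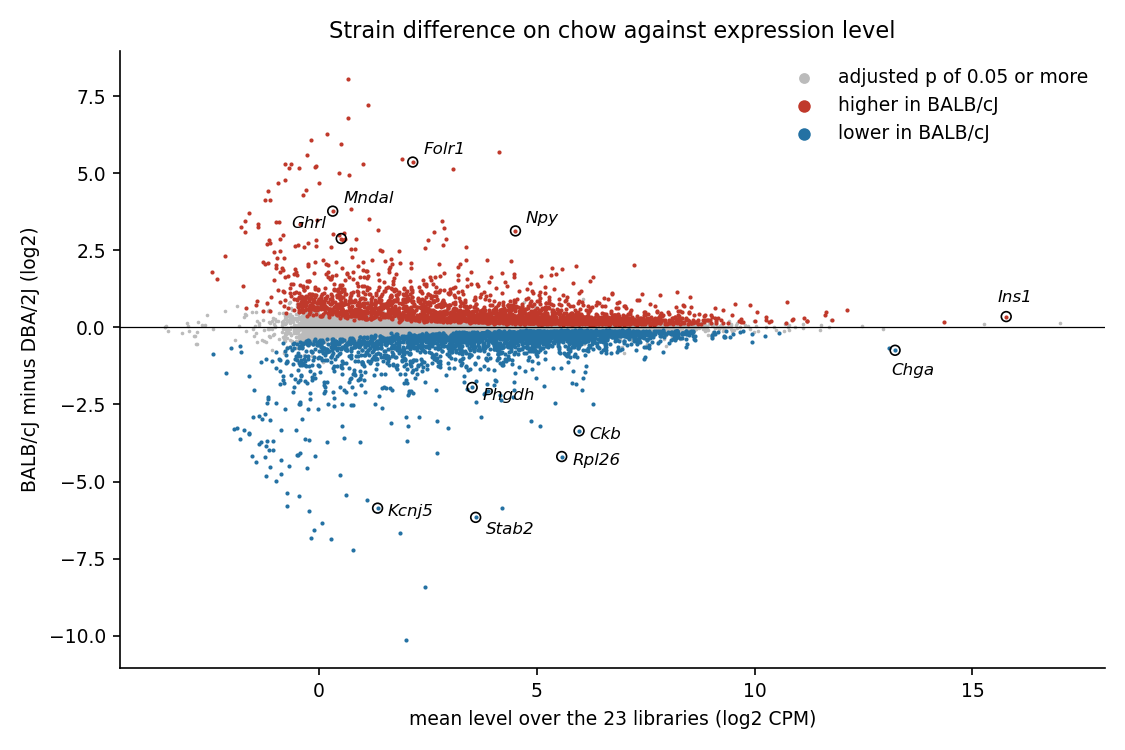
Difference BALB/cJ minus DBA/2J on RC (log2, vertical) against the mean level over the 23 libraries (log2 CPM, horizontal), 1 point per gene, with the genes past the adjusted p of 0.05 in colour. Called genes lie on both sides of 0 in near equal number, 2534 above and 2579 below.

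Leading genes were ranked among coding genes with an established symbol, without the lowest 25% of genes by mean level (under 2.21 log2 CPM). The highest difference was that of Folr1 (ENSMUSG00000001827.12, GRCm38 chr7:101858331-101870788), which encodes folate receptor alpha. Folr1 was at 4.17, 4.76 and 5.07 log2 CPM in BALB/cJ islets (lowest, median, highest), against -1.26, -0.58 and 0.06 in DBA/2J islets. The groups were far apart, by 5.36 ± 0.12 (SE) or 41.2-fold (limma adjusted p = 4.11e-42), and C57BL/6J islets, with a mean of 4.61, lay by BALB/cJ. Also on chromosome 7, Fxyd3 (chr7:31068172-31076704), a regulator of the sodium pump, was 25.6-fold higher in BALB/cJ, with a median of 2.42 in BALB/cJ and -2.45 in DBA/2J.

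Npy (ENSMUSG00000029819.6, chr6:49822710-49829507) encodes neuropeptide Y, an appetite-stimulating peptide that in islets restrains insulin secretion. It was at 4.6, 6.06 and 6.80 log2 CPM in BALB/cJ islets, against 1.71, 2.98 and 3.81 in DBA/2J islets. The difference of 3.13 ± 0.27 was 8.76-fold, and the lowest BALB/cJ library still exceeded the highest DBA/2J library. C57BL/6J islets averaged 2.51, close to DBA/2J. The difference in Npy was 2.28 at day 5, 3.36 at day 13 and 3.74 at day 33, and 2.95 on HFD. Tceanc2 (chr4:107134155-107179116), a gene with a domain related to elongation factor TFIIS, was 8.45-fold higher in BALB/cJ, at 3.89, 4.09 and 4.23 against 0.40, 1.06 and 1.89 in DBA/2J. On the same stretch of chromosome 4 the sign was the other way for Dio1 (chr4:107291465-107307169), the type 1 deiodinase that activates thyroid hormone, and for Lrp8 (chr4:107802261-107876840), the ApoE and reelin receptor. Dio1 was at 2.91, 3.38 and 4.81 in BALB/cJ, against 6.53, 6.74 and 7.05 in DBA/2J, 9.24-fold lower. Lrp8 was 5.17-fold lower, at 2.87 to 3.27 in BALB/cJ and 4.98 to 5.73 in DBA/2J.

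Stab2 (ENSMUSG00000035459.17, chr10:86841198-87008025), which encodes stabilin-2, a scavenger receptor for hyaluronan best known from sinusoidal endothelium, had the lowest difference by the same ranking. It was at -0.09, 0.49 and 2.05 log2 CPM in BALB/cJ islets, against 4.98, 7.0 and 7.61 in DBA/2J islets. The difference of -6.16 ± 0.19 was 71.6-fold, and C57BL/6J islets, with a mean of 1.42, were nearer to BALB/cJ. Markers of the endothelial cell as a whole did not follow Stab2: of 17 measured, 6 were higher and 2 lower in BALB/cJ, with Kdr at 0.26, Flt1 at 0.19 and Emcn at -0.31. Ckb (chr12:111669361-111672338), the brain-type creatine kinase that buffers ATP, was at 3.75, 4.42 and 4.86 in BALB/cJ, against 7.54, 7.69 and 8.06 in DBA/2J, 10.2-fold lower. Kcnj5 (chr9:32314707-32344350), a subunit of the G-protein-gated potassium channel through which inhibitory receptors hyperpolarise cells, was at -2.56, -1.47 and -0.42 in BALB/cJ, against 4.0, 4.54 and 4.74 in DBA/2J, 58.2-fold lower. Its level in C57BL/6J islets averaged -1.65, close to BALB/cJ, and its mean over all libraries was too low for the ranking above.

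**Figure D3:**
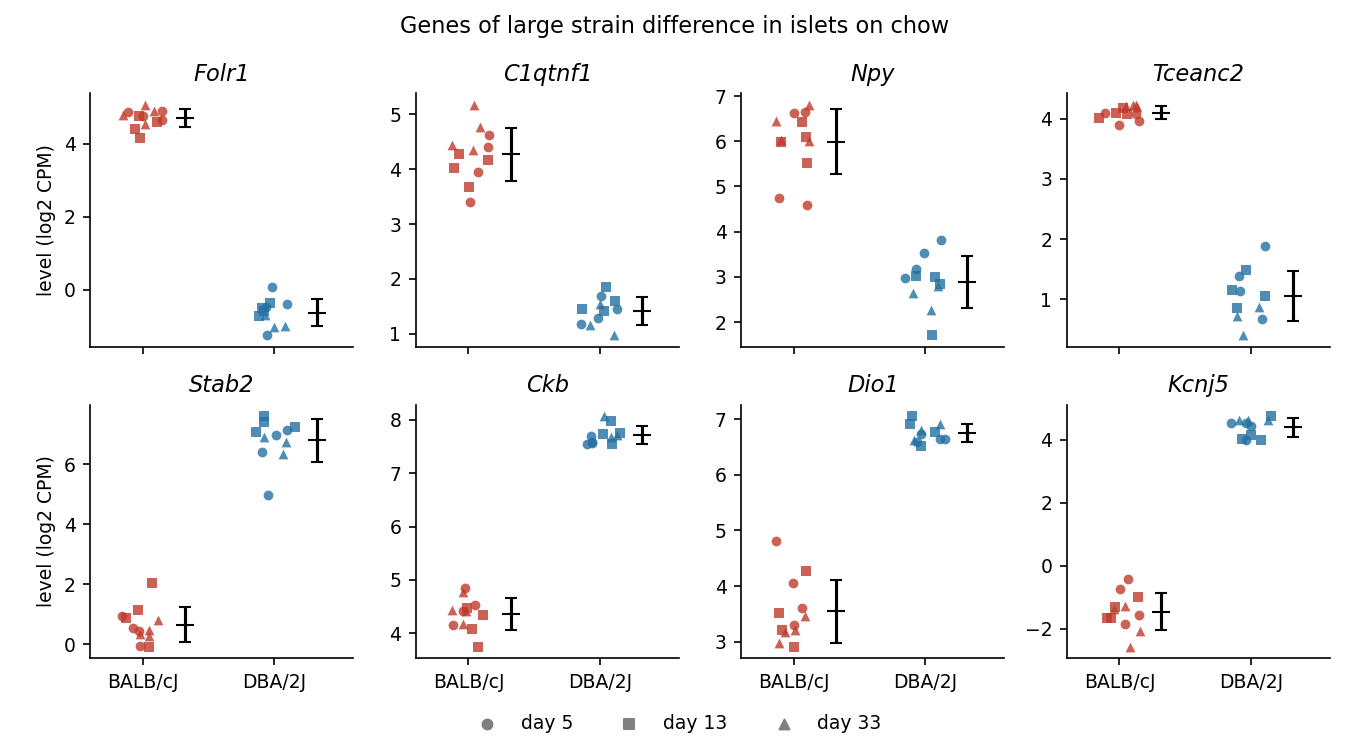
Levels of 8 genes (log2 CPM, vertical) in each BALB/cJ library and each DBA/2J library on RC, 1 point per mouse, with colour for the strain and shape for the day, with black bars for the mean ± SD of each strain. In Folr1, C1qtnf1, Npy and Tceanc2 every BALB/cJ library lies above every DBA/2J library, and in Stab2, Ckb, Dio1 and Kcnj5 every one lies below.

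Other genes among the 12 highest were Plekha4, a phosphoinositide-binding protein (2.84 ± 0.12), C1qtnf1, a secreted C1q and TNF-related protein (2.87 ± 0.13), Elovl4, an elongase of very long-chain fatty acids (2.62 ± 0.11), Kcnip3, a calcium sensor that binds potassium channels and DNA (2.57 ± 0.11), Inpp4b, a phosphoinositide phosphatase (2.19), Dmtn, an actin-bundling protein (2.18), Meox1, a homeobox factor (2.05), and Clip4 (1.97). Each was called in the same direction on HFD, at 2.08 to 3.08. Among the 12 lowest were Msln, the mesothelial surface protein mesothelin (-3.28 ± 0.17), Wdr49 (-3.05), Snhg11 (-3.02), Tnfrsf11b, the decoy receptor osteoprotegerin (-2.92 ± 0.13), Rab3c, a GTPase of secretory vesicles (-2.48 ± 0.11), and Thsd4 (-2.40). Snhg11 is named as a host of small nucleolar RNAs but was ranked with the coding genes by its annotated type. Msln had no overlap between strains, at 0.74 to 2.98 in BALB/cJ and 3.65 to 5.54 in DBA/2J islets. Otud3, also among the lowest at -2.91 over all libraries, is one of the genes that divide the BALB/cJ libraries: without the 7 libraries its difference was -3.74, and that of Pla2g5 was 4.91 in place of 3.85. By adjusted p, the 10 leading genes also took in Lrp8, Glt1d1, a glycosyltransferase (-2.17), and Arhgef15, an activator of small GTPases in vessels (-2.05).

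Rpl26 and Rpl35a, which encode proteins of the large ribosomal subunit, came out 18.2-fold and 5.49-fold lower in BALB/cJ, but both have near-identical processed copies in the genome among which reads can be split. Rpl26 (chr11:68901583-68906989) was at 2.85, 3.63 and 3.95 log2 CPM in BALB/cJ islets, against 7.52, 7.76 and 8.15 in DBA/2J islets. Gm15772 (chr5:3236431-3236868), a transcribed pseudogene that RefSeq also lists under the name Rpl26, went the other way, at 6.59, 6.84 and 7.07 log2 CPM in BALB/cJ, against 0.58, 1.09 and 1.98 in DBA/2J. Summed as CPM and then taken to log2, the pair was at 6.74, 7.01 and 7.18 in BALB/cJ and 7.53, 7.78 and 8.17 in DBA/2J, so the gap on the sum was much smaller than that on either gene. The level of Rpl26 itself is therefore uncertain. No copy of Rpl35a was among the genes of the table, and its value is uncertain for the same reason. Over the 78 cytosolic ribosomal protein genes measured, 2 were higher and 21 lower in BALB/cJ, with a median of -0.10, and the 21 became 7 without day 5, 9 without day 13, 36 without day 33, 12 without the 7 divided libraries, 14 and 32 without DBA/2J day 13 replicate 3 or 4, 13 without DBA/2J day 33 replicate 2, and 34 with weights per library.

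A set of 16 genes had 3 or fewer reads over all RC libraries of 1 strain and a mean above 0 log2 CPM in the other. The low strain was BALB/cJ for 7 of them and DBA/2J for 9. The antisense gene Gm48837 had 6790 reads in BALB/cJ and 0 in DBA/2J, at least 1790-fold higher, taking 3 reads over the DBA/2J group as the floor. The transcript 1700030C10Rik had 1039 reads in BALB/cJ and 0 in DBA/2J. In the other direction, 9430085M18Rik had 0 reads in BALB/cJ and 554 in DBA/2J (at least 233-fold lower), Elobl, related to elongin B, 0 and 346 (at least 145-fold lower), and Cldn34c1, a claudin relative, 0 and 234 (at least 98.4-fold lower). Ifi44l, an interferon-induced gene, had 453 reads in BALB/cJ and 2 in DBA/2J. Only 4 of the 16 were protein-coding, Elobl, Cldn34c1, Ifi44l and Gm12666. All of these were picked after their values had been seen.

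Neighbouring genes could both differ strongly. Among genes next to each other on a chromosome in the table, 11 pairs had differences of 2 or more in both members, 7 with 1 sign and 4 with opposite signs. The pairs of 1 sign include overlapping entries of the same symbol, 1700030C10Rik, and the number of pairs to be expected was not computed. Rpl26, whose level is uncertain as said above, and Arhgef15 on chromosome 11 were both lower in BALB/cJ. The zinc finger genes Zfp970 (5.02) and Gm14403 (4.93) on chromosome 2 were both higher. Zfp970, like Gm14403, stood apart in DBA/2J libraries of day 13. It was at -0.6, 0.95 and 1.86 log2 CPM in RC day 13 replicates 1, 3 and 4, and at 1.64 to 2.22 on HFD day 13. The other DBA/2J libraries on RC were at -3.54 to -2.1. Meox1 (2.05) and Sost (-2.14), which encodes the bone protein sclerostin, had opposite signs on chromosome 11, as did Pla2g5 and Otud3 on chromosome 4. Over 293 windows of 5 Mb with at least 20 tested genes, the share of genes called had a median of 34.29% and reached 69.23%. It was under 20% in 15 windows and over 50% in 25, and by chromosome it was highest on chromosome 1 (38.71%) and lowest on chromosome 17 (27.43%). In the MHC interval of chromosome 17 (chr17:33974659-37274484), 22 of 106 tested genes (20.75%) were called and 1 differed by at least 1, against 170 of 594 (28.62%) on the rest of the chromosome. These shares are descriptions, since genes along a chromosome are not independent.

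Of 24 genes for islet hormones and granule cargo, 11 were higher and 3 lower in BALB/cJ, with a median difference of 0.19 against 7e-04 over all genes, of which 17.4% were higher and 17.7% lower. The tilt was not even over the days: 7 were higher and 3 lower at day 5, 4 and 4 at day 13, and 9 and 2 at day 33. The medians at these days were 0.23, 0.03 and 0.33. Over all genes, 9.78%, 13.1% and 8.26% were higher and 11.1%, 14.4% and 7.74% lower. On HFD 6 of the 24 were higher and 4 lower, with a median of 0.07, beside 2480 and 2650 of all 14604 genes. The insulin genes moved little: Ins1 was 1.28-fold higher at 15.58, 15.94 and 16.21 log2 CPM in BALB/cJ and 15.30, 15.56 and 16.09 in DBA/2J (0.35 ± 0.11, limma adjusted p = 0.00716), and the call was lost without day 5 or without day 33. Ins2 (0.14 ± 0.13), glucagon Gcg (0.12 ± 0.11) and pancreatic polypeptide Ppy (0.22 ± 0.18) did not pass. Somatostatin, Sst, was 1.4-fold higher in BALB/cJ (0.49 ± 0.09), with 11.51, 11.93 and 12.19 in BALB/cJ and 11.05, 11.38 and 12.04 in DBA/2J. Peptide YY, Pyy, was 1.64-fold higher (0.72 ± 0.13). Ghrelin, Ghrl (chr6:113716119-113719880), the hormone of epsilon cells, was 7.38-fold higher without overlap, at 0.41, 1.94 and 2.63 in BALB/cJ and -2.11, -0.95 and 0.21 in DBA/2J. Its level in C57BL/6J islets averaged 2.00, by BALB/cJ. In bulk islets a higher level of a cell's hormone and a larger number of such cells cannot be told apart, and this holds for every level given here.

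The granule's own proteins divided. The prohormone convertases that cut proinsulin and proglucagon were higher in BALB/cJ, Pcsk1 by 0.50 ± 0.06 and Pcsk2 by 0.57 ± 0.05, and the finishing exopeptidase Cpe by 0.24 ± 0.04. Pcsk2 was at 12.23, 12.39 and 12.58 in BALB/cJ, against 11.69, 11.83 and 11.98 in DBA/2J, with no overlap. Of the granins, which pack the granule, Chga and Scg2 were lower. Chga was at 12.54, 12.91 and 13.13 in BALB/cJ and 13.37, 13.61 and 13.89 in DBA/2J (-0.74 ± 0.07, 1.67-fold), and Scg2 was 1.58-fold lower (-0.66 ± 0.09). Slc30a8, the zinc transporter of the insulin granule, was 1.38-fold lower, at 9.57 to 9.82 in BALB/cJ and 9.96 to 10.29 in DBA/2J. All 6 kept their call and direction in every alternative run, and on HFD the differences were 0.38, 0.51, 0.14, -0.65, -0.88 and -0.49 in the same order. Other granins went the other way or did not pass, Chgb being higher by 0.26 ± 0.06, Scg3 by 0.20 ± 0.06 (a call lost without day 33) and Scg5 differing by 0.08 ± 0.05. Amylin, Iapp, co-secreted with insulin, was 0.18 ± 0.06 higher, a call lost without day 5, without day 33, or with only the 23 libraries in the model.

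Of 23 beta-cell transcription factors measured, 3 were higher (among them Etv1 by 0.64 and Pax6, a factor of all islet endocrine cells, by 0.18) and 2 lower (Nkx2-2 by -0.29 and Insm1 by -0.22), and the median was 0.04. The beta-cell regulators Pdx1 (0.09 ± 0.05), Nkx6-1 (0.12 ± 0.06) and Mafa (0.19 ± 0.16) did not pass, nor did the maturity marker Ucn3 (-0.12 ± 0.07). The call of Nkx2-2 was lost without day 13. The call of Insm1 was lost without day 33, without the 7 divided libraries, and with cell-type scores as covariates. Among 24 genes of glucose sensing and the KATP channel, 3 were higher and 10 lower, with a median of -0.10. The lower ones numbered 3 at day 5, 9 at day 13 and 2 at day 33, and 4 over the days without day 13. Of all genes, 11.1% were lower at day 5, 14.4% at day 13 and 7.74% at day 33, and 2052 of 14604 without day 13. The list thus lay near the share of all genes at days 5 and 33 and above it at day 13. The channel's subunits were both higher, Kcnj11 by 0.28 ± 0.06 and Abcc8 by 0.21 ± 0.06, the call of Abcc8 being lost without day 5. The glucose transporter Slc2a2 (-0.15 ± 0.08) and G6pc2, the islet glucose-6-phosphatase (0.08 ± 0.12), did not pass. Enzymes downstream were lower, pyruvate kinase Pklr by -0.49 ± 0.06 and the pyruvate dehydrogenase subunit Pdha1 by -0.40 ± 0.04.

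Of 27 receptors for incretins, fatty acids and neurotransmitters, 10 were higher and 6 lower in BALB/cJ, with a median of 0.14. The receptors for short-chain fatty acids were higher without overlap between strains, Ffar2 by 1.10 ± 0.10 (4.13, 4.73 and 5.11 in BALB/cJ, 3.18, 3.69 and 3.90 in DBA/2J) and Ffar3 by 0.83 ± 0.08. Gabbr2, a subunit of the GABA-B receptor, was 2.27-fold higher at 5.92, 6.55 and 7.18 in BALB/cJ and 5.11, 5.38 and 5.59 in DBA/2J. The incretin receptors were lower in BALB/cJ. Gipr, the GIP receptor, was at 5.95, 6.24 and 6.53 in BALB/cJ and 6.58, 6.86 and 7.55 in DBA/2J (-0.72 ± 0.11, 1.65-fold), and Glp1r, the GLP-1 receptor, was 1.34-fold lower (-0.42 ± 0.07). The adenosine receptor Adora1 (-0.89 ± 0.08), the somatostatin receptor Sstr2 (-0.85 ± 0.14) and the calcium-sensing receptor Casr (-0.72 ± 0.08) were lower as well.

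Voltage-gated and related ion channels split evenly, 7 higher and 7 lower of 31. The calcium-activated cation channel Trpm5, which shapes the beta cell's electrical bursts, was higher in BALB/cJ, at 7.46, 7.74 and 7.96 against 6.35, 6.81 and 7.22 in DBA/2J (0.90 ± 0.11). Cacna1e, the R-type calcium channel, was 4.42-fold lower, at 0.49, 1.02 and 1.63 in BALB/cJ and 3.05, 3.22 and 3.74 in DBA/2J. Its level in C57BL/6J averaged 0.10, by BALB/cJ. Of 33 genes of the exocytosis machinery, 8 were higher and 7 lower, or 3 lower without day 13. The priming factor Cadps (0.51 ± 0.05) and the granule docking protein Sytl4 (0.42 ± 0.04) were higher, while rabphilin, Rph3a, was 10.1-fold lower at -3.00 to -1.17 in BALB/cJ and 0.57 to 1.92 in DBA/2J. The calcium sensor Syt7 was lower by a small amount without overlap (-0.29 ± 0.04).

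Genes of protein folding in the endoplasmic reticulum (ER) were higher in BALB/cJ on average, while more genes of the integrated stress response were lower than higher. When unfolded proteins build up in the ER, the sensors ATF6 and IRE1 raise chaperones and degradation factors, and the kinase PERK raises ATF4, which drives genes of amino acid synthesis and transport. Of 30 ER chaperone and ER-associated degradation genes, 19 were higher and 0 lower, with a median of 0.31, beside the 17.4% and 17.7% of all genes. Edem2, which trims glycans of misfolded proteins for degradation, was at 8.02, 8.36 and 8.66 in BALB/cJ and 6.94, 7.22 and 7.68 in DBA/2J (1.07 ± 0.07, 2.09-fold). Derl3, a channel component of that degradation, was 2.27-fold higher (1.18 ± 0.18), at 4.97, 5.35 and 6.16 in BALB/cJ and 3.74, 4.29 and 4.92 in DBA/2J. Sel1l (0.40 ± 0.06) and Ero1lb, an oxidase of insulin folding (0.39 ± 0.07), were higher as well. Smaller differences were those of Hspa5, the chaperone BiP (0.32 ± 0.09), the disulphide isomerases Pdia4 (0.44 ± 0.09) and Pdia6 (0.41 ± 0.09), Manf (0.47 ± 0.09) and Creld2 (0.68 ± 0.13). Canx (adjusted p = 0.954 by limma), Hsp90b1 (0.14 ± 0.07) and the factor Xbp1 (0.01 ± 0.04) did not pass.

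Of 26 genes of the integrated stress response, 4 were higher and 13 lower, with a median of -0.30. Nupr1, a stress-induced nuclear protein, was 4.81-fold lower, at 2.00, 3.28 and 5.04 in BALB/cJ and 5.07, 5.62 and 6.06 in DBA/2J. The enzymes of serine synthesis, Phgdh (-1.95 ± 0.12) and Psat1 (-1.31 ± 0.14), and of mitochondrial folate, Aldh1l2 (-1.83 ± 0.15), were lower, as were the pseudokinase Trib3 (-1.10 ± 0.22) and the glutathione-degrading Chac1 (-0.88 ± 0.25), whose call was lost without day 13 or day 33. Phgdh was at 2.12 to 3.14 in BALB/cJ and 4.06 to 4.87 in DBA/2J. The 4 higher members were Psph, the last enzyme of serine synthesis (0.25), the paired amino acid transporter chains Slc7a5 (0.28) and Slc3a2 (0.29), and Ppp1r15a, which reverses the response (0.40). The call of Psph was lost without day 5 or day 13 and that of Slc7a5 without day 5, which left 2 higher. Atf4 itself did not pass (-0.06 ± 0.08).

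The number of ER genes called was highest at day 5. At that day, 22 ER genes were higher with a median of 0.57, at day 13 there were 11 with a median of 0.24, and at day 33 there were 2 with a median of 0.07, with 0 lower at each day. On HFD 7 were higher with a median of 0.11, and without day 5 also 7, with a median of 0.16. Of all genes, 9.78% were higher at day 5, 13.1% at day 13 and 8.26% at day 33, and 2480 of 14604 on HFD. The share of ER genes higher at day 33 was thus below that of all genes. Creld2 differed by 1.24 at day 5, 0.53 at day 13 and 0.27 at day 33, and Edem2 by 1.24, 0.80 and 1.15. For no gene, however, did the strain difference at day 33 minus that at day 5 pass its own test. The calls of Hspa5, Pdia4, Pdia6 and Creld2 over the days were lost without day 5. Of the stress-response genes, 5 were higher and 5 lower at day 5, 1 and 11 at day 13, and 2 and 11 at day 33. Their medians were -0.14, -0.33 and -0.47 at days 5, 13 and 33, and -0.33 on HFD, where 2 were higher and 15 lower. Of all genes, 11.1% were lower at day 5, 14.4% at day 13 and 7.74% at day 33, and 2650 of 14604 on HFD. Summed markers of acinar cells, whose ER is extensive, were at 670, 4080 and 15800 CPM in BALB/cJ and 1340, 4680 and 13000 CPM in DBA/2J. With acinar and other cell-type scores in the model, 22 ER genes were higher and 0 lower, and 5 and 14 stress-response genes were higher and lower. The part of acinar cells in these differences was not tested.

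**Figure D4:**
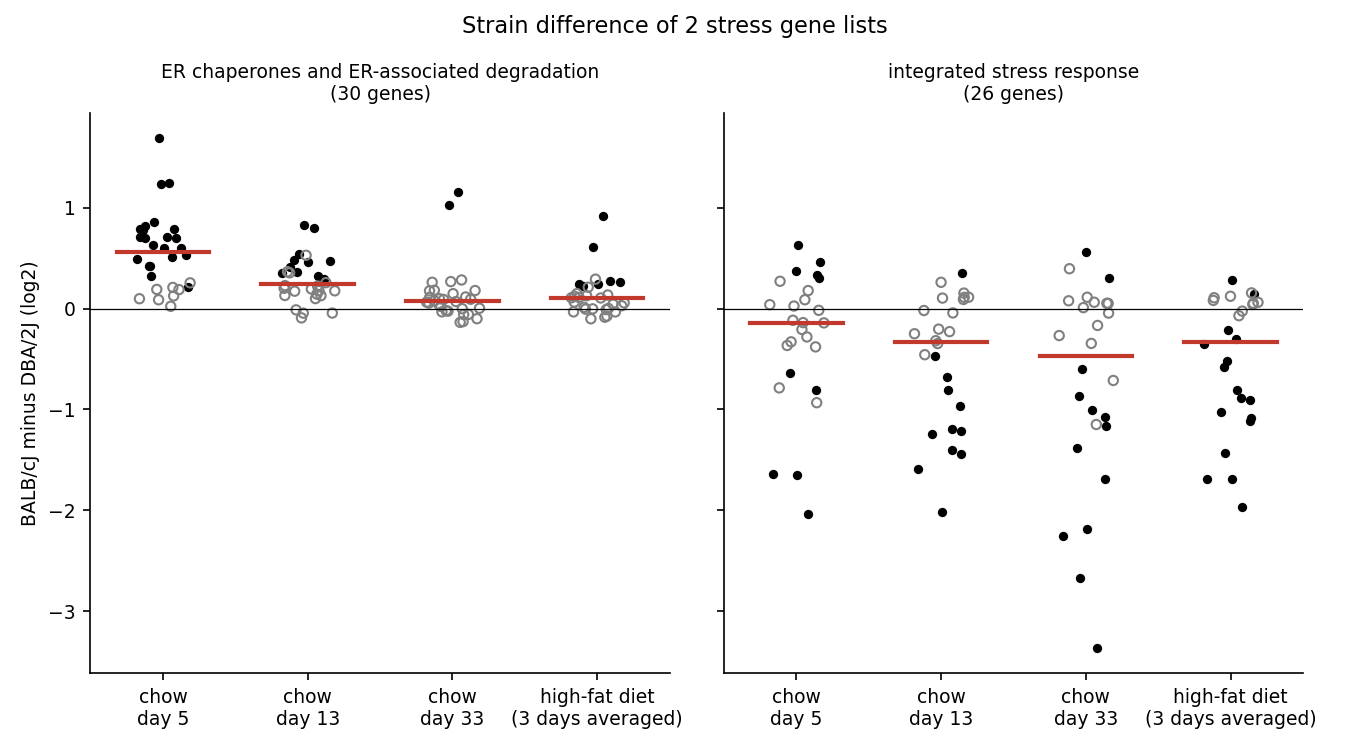
Difference BALB/cJ minus DBA/2J (log2, vertical) of each measured gene of the ER list and of the integrated stress response list at RC days 5, 13 and 33 and on HFD, filled where the gene passed an adjusted p of 0.05 in that contrast, with a red line at the median. The ER medians are 0.57, 0.24, 0.07 and 0.11 and the stress-response medians -0.14, -0.33, -0.47 and -0.33.

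Promoters of both lists are shown because the called members lay mostly on opposite sides of 0 and different elements are known for them. The windows run from 250 bases before to 50 bases after the gene's start in RefSeq on GRCm38.p6, and come from C57BL/6J, not from either strain. The ER stress element was searched on both strands as CCAAT and CCACG with 9 bases between. It occurred in 10 of the 26 ER genes with a window and in 0 of 22 stress-response genes. Over the genome it occurred in 0.137% of 27025 gene symbols, or 0.119% of 32851 windows. Of the 10 genes, 8 were higher in BALB/cJ and 0 lower, beside 19 and 0 of the 30 genes of the list. The core of the ATF4 element was searched as TGATGNAA on both strands. It occurred in 7 of the 22 stress-response genes and 1 of the 26 ER genes, against 4.51% of gene symbols, or 3.97% of windows. Of the 7, 0 were higher and 6 lower, beside 4 and 13 of the 26 genes of the list. Since the elements were known for such genes beforehand, their presence in the lists is no result of these data. No gene of either list held both motifs, and a match is a description of the letters, not of binding. Capitals mark the match, in either orientation, in the windows of Derl3 (chr10:75893148-75893447, plus strand), Creld2 (chr15:88819396-88819695, plus strand), Nupr1 (chr7:126625421-126625720, minus strand) and Trib3 (chr2:152344011-152344310, minus strand), each written 5′ to 3′ along its gene.
Derl3: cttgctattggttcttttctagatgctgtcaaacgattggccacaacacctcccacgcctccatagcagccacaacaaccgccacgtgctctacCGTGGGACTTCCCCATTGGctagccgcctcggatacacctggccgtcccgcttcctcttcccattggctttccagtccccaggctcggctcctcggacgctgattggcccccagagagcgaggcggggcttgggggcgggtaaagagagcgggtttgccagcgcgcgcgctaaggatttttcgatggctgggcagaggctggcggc
Creld2: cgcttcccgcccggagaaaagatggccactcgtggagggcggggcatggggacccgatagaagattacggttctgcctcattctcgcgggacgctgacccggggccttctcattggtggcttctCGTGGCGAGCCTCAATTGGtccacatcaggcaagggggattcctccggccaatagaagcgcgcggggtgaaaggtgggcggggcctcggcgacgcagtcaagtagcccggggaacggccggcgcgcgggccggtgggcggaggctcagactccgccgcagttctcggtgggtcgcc
Nupr1: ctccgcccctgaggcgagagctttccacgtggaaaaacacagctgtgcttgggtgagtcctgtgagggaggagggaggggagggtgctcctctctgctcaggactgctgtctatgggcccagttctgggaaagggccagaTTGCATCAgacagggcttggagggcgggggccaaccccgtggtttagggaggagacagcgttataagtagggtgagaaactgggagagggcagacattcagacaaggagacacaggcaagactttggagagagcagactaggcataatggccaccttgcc
Trib3: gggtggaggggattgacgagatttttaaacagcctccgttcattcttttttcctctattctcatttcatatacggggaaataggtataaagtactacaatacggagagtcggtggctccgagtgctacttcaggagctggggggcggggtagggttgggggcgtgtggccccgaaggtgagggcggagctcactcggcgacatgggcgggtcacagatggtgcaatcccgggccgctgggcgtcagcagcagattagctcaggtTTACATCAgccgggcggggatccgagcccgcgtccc

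Interferon-related genes differed in both directions. Of 54 interferon-induced genes, 16 were higher and 12 lower in BALB/cJ, with a median of 0.10. Of the 8 guanylate-binding proteins, GTPases that attack vacuoles of intracellular microbes, 5 were higher and 1 lower. Gbp2b was at 1.49, 2.06 and 2.72 in BALB/cJ and -2.06, -1.19 and 0.50 in DBA/2J, 8.44-fold higher, and its mean in C57BL/6J islets was -3.27. Gbp9 (2.48 ± 0.16), Gbp4 (1.78 ± 0.21), Gbp8 (0.93) and Gbp7 (0.40, a call lost without day 13) were higher and Gbp2 lower (-0.58), while Gbp3 (0.40 ± 0.17) and Gbp5 (0.36 ± 0.17) did not pass. Gbp4 and Gbp9 overlap on chromosome 5, so reads of their shared stretch cannot be assigned and their separate levels are uncertain. The p200 genes of chromosome 1, whose proteins sense DNA, were all called: Mndal was 13.7-fold higher in BALB/cJ (1.38 to 2.82, against -2.65 to -0.72), Ifi203 3.16-fold higher, Ifi203-ps, Ifi204 and Ifi207 higher by 1.05, 0.82 and 0.49, and Ifi202b 3.26-fold lower. The call of Ifi204 was lost without day 5, and that of Ifi207 without day 5, without day 13, without the 7 divided libraries and with cell-type scores as covariates. These are close copies of each other, so reads can be split among them. Of the 5 schlafen genes, which restrain growth and viral translation, Slfn2 (2.03 ± 0.19), Slfn3 (0.66), Slfn9 (0.55) and Slfn5 (0.24) were higher and Slfn8 lower (-0.97), with the call of Slfn9 lost in 8 removals of 1 library, that of Slfn5 in 2 and that of Slfn3 without day 5. Xaf1, an interferon-induced promoter of cell death, was 4.17-fold lower in BALB/cJ.

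Of 35 genes for MHC class I and II and antigen processing, 5 were higher and 4 lower, with a median of 0.03. Among the class I genes, H2-D1 was lower, at 7.79, 8.21 and 8.39 in BALB/cJ and 8.51, 8.70 and 8.95 in DBA/2J (-0.54 ± 0.07), and H2-K1 did not pass (0.16 ± 0.07). In C57BL/6J, which carries another haplotype, H2-K1 averaged 8.40, against a highest value of 7.14 in BALB/cJ and 7.0 in DBA/2J. B2m, the light chain of class I molecules, was lower (-0.37 ± 0.10), a call lost without day 5. H2-Q7 was lower at a low level (-1.02 ± 0.34), a call lost with only the 23 libraries in the model, with log2(CPM + 1), and without day 5 or day 33. Of 29 chemokines, cytokines and complement genes, 4 were higher, among them the complement component C1qa (0.73), and 4 lower, among them Il18 (-0.94) and the chemokine Cx3cl1 (-0.54).

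Lipid genes were called in both directions. Of 40 genes of fatty acid and cholesterol synthesis, 15 were higher and 3 lower, with a median of 0.18. The counts were 10 and 4 without day 5. By day, 15 were higher and 1 lower at day 5, 10 and 2 at day 13, and 5 and 2 at day 33. Their medians fell from 0.25 to 0.18 and 0.10, and of all genes 9.78%, 13.1% and 8.26% were higher. On HFD 14 of the 40 were higher and 5 lower, with a median of 0.08, beside 2480 and 2650 of all 14604 genes. Acaca, the acetyl-CoA carboxylase that makes malonyl-CoA, was at 5.40, 5.52 and 5.74 in BALB/cJ and 3.95, 4.62 and 4.73 in DBA/2J, 2.09-fold higher, and its mitochondrial relative Acacb was 2.66-fold higher. The lipogenic regulator Thrsp (1.07 ± 0.13), the elongase Elovl2 (0.68) and Insig2, which holds back sterol synthesis (0.41), were higher too. Fatty acid oxidation and PPAR targets, 40 genes in all, had 4 higher and 12 lower, with a median of -0.06. Ppargc1a, the coactivator of mitochondrial biogenesis, was 3.88-fold lower, at -0.07, 0.69 and 1.14 in BALB/cJ and 2.30, 2.56 and 2.89 in DBA/2J. Pdk2, a kinase that shuts off pyruvate dehydrogenase, was lower (-0.78), while Acadl, a long-chain acyl-CoA dehydrogenase, was 2.16-fold higher.

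Of 72 nuclear-encoded genes of oxidative phosphorylation, 3 were higher and 23 lower, with a median of -0.10. The 23 were 11 without day 13, 14 without day 5 and 17 without the 7 divided libraries. Sdha, a subunit of complex II, was lower by a small amount without overlap (-0.32 ± 0.03), Atp5g1, a subunit of the ATP synthase, was lower (-0.68 ± 0.09), and Sdhc, another complex II subunit, was higher (0.37). Cox7a2l, which joins respiratory complexes into supercomplexes, was at 6.82, 6.97 and 7.17 in BALB/cJ and 5.77, 6.05 and 6.38 in DBA/2J (0.95 ± 0.05, 1.93-fold). Of the 9 mitochondrially encoded genes in the table, 3 were higher and 0 lower, the ribosomal RNAs mt-Rnr1 (0.86 ± 0.12) and mt-Rnr2 (0.64 ± 0.11) and the complex I gene mt-Nd1 (0.22 ± 0.08), whose call was lost in 9 removals of 1 library. The libraries were poly(A)-selected, and the part of that selection in the levels of the 2 ribosomal RNAs was not tested.

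Of 38 genes of glutathione and NRF2, the regulator of antioxidant defence, 5 were higher and 10 lower, with a median of -0.01. Gstm2, a glutathione S-transferase, was 3.32-fold higher in BALB/cJ without overlap, at 5.07 to 5.50 against 3.24 to 3.73 in DBA/2J. The quinone reductase Nqo1 (-1.15 ± 0.10) and the haem oxygenase Hmox1 (-0.66 ± 0.11) were lower. Of 43 xenobiotic and steroid genes, 7 were higher and 11 lower, among them the sulfotransferases Sult1d1 (-1.28) and Sult1c2 (-1.16). Of 49 genes of DNA replication and mitosis, 1 was higher and 11 lower, with a median of -0.29. In all, 24.49% of these genes were called, fewer than the 35.0% of all genes, of which 17.7% were lower. The median of the list was -0.33 at day 5, -0.57 at day 13 and 0.01 at day 33. The 11 were 7 without day 13 and 20 with only the 23 libraries in the model. Cyclin E1, Ccne1 (-1.20 ± 0.13), and the cell-cycle inhibitors Cdkn2b (-1.14 ± 0.12) and Cdkn1a (-1.05 ± 0.16) were lower, so the called members include brakes as well as drivers of division. The proliferation marker Mki67 did not pass (-0.39 ± 0.25). Of 19 clock genes, 1 was higher, Per2 (0.51), and 4 lower, Npas2 (-1.52) and Arntl (-0.70) among them, the call of Arntl being lost without day 5, without day 33 and without the 7 divided libraries. The hour of sampling is not in the labels, and its part was not tested.

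Of 11 measured genes with textbook alleles in BALB/c or DBA/2 mice, 2 were higher and 1 lower. Tph2, the neuronal serotonin synthase whose coding variant BALB/c and DBA/2 mice share, was higher at a low level (0.76 ± 0.16), a call lost without day 33, and Ildr2, known as a DBA/2 diabetes modifier, was higher by 0.93 ± 0.28, a call lost without day 13 and with cell-type scores as covariates. Alad, which is duplicated in DBA/2J, was lower in BALB/cJ by -0.23 ± 0.07, a call lost without day 13, and averaged 3.41 in C57BL/6J against medians of 5.30 in BALB/cJ and 5.43 in DBA/2J. Myo5a, the gene of the dilute coat colour (-0.12 ± 0.05), Prkdc, hypomorphic in BALB/c (0.15 ± 0.06), and Zhx2, altered in BALB/cJ (-0.07 ± 0.06), did not pass.

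Markers of cell types beside the endocrine cells gave mixed values. Of 21 stellate cell and fibroblast genes, 12 were higher in BALB/cJ and 1 lower, with a median of 0.56, led by the collagens Col1a1 (1.34 ± 0.31; 3.79, 5.06 and 5.74 in BALB/cJ and 2.96, 3.54 and 4.21 in DBA/2J) and Col1a2 (0.88) and the proteoglycan Lum (1.18 ± 0.28). The matrix protein Sparc was the lower one (-0.35), a call lost without day 13. Summed over the list, BALB/cJ libraries were at 577, 851 and 1270 CPM and DBA/2J libraries at 632, 747 and 915 CPM, which overlap, and the 12 were 5 without day 5. Of 12 Schwann cell and neuron genes, 8 were higher and 1 lower, with a median of 0.75 and with the glial genes Gfap (1.23 ± 0.30) and Sox10 (0.81 ± 0.26) and the neuronal Stmn2 (1.18 ± 0.29) among them. The catecholamine enzyme Th, also made by beta cells, was the lower one (-0.45), a call lost without day 5 or without the 7 divided libraries. The call of Sox10 was lost without day 5, without day 13, without the 7 and with cell-type scores as covariates, the last also for Stmn2. Their summed level overlapped too, at 146, 206 and 297 CPM in BALB/cJ and 171, 221 and 279 CPM in DBA/2J, and the 8 were 3 without day 13 and 4 without the 7 divided libraries. With scores of acinar, endothelial, macrophage and stellate cells as covariates, the first list having lent its own genes to a score, the counts were 4 higher and 4 lower, and 2 higher and 1 lower.

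Of 14 ductal genes, 7 were higher and 3 lower, or 4 and 3 without day 5. Krt19, a keratin of duct cells, was 3.83-fold higher, at 2.10, 3.21 and 3.64 in BALB/cJ and 0.28, 1.23 and 2.21 in DBA/2J, while Spp1 (-0.82 ± 0.16) and Prom1 (-1.12 ± 0.10) were lower. The duct and endocrine factor Onecut2 was higher (0.87). Of 9 delta cell genes, 6 were higher and 1 lower, with Lepr, the leptin receptor, at 1.03 ± 0.19 and Casr the lower one. Of 14 alpha cell genes, 3 were higher, among them the amino acid transporter Slc38a5 (1.48 ± 0.14) and Loxl2 (0.67), and 3 lower, among them the potassium channel Kcnj3 (-0.84) and the vitamin D carrier Gc (-0.72). Of 25 genes that beta cells normally keep off, 6 were higher and 2 lower, with Lmo4 at -1.36 ± 0.12. The direction turned with cell-type scores as covariates, which left 0 higher and 5 lower, and without day 13 there were 2 higher and 1 lower. Of 32 acinar genes, 3 were higher and 0 lower, with a median of -0.36. The median was -0.53 at day 5, 1.00 at day 13 and -1.61 at day 33, and without day 33 it turned to 0.25, while without day 13 there were 0 calls in either direction. Of the 3, Bhlha15 lost its call without day 5, without day 13 or without BALB/cJ day 33 replicate 4. Of 17 macrophage genes, 2 were higher and 1 lower, the surface marker Adgre1 (-0.45), and without day 13 there were 2 higher and 3 lower. Reg2, the 1 member called of 4 Reg genes, was higher by 2.13 ± 0.65 over the days but by 0.37 without day 13.

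**Figure D5:**
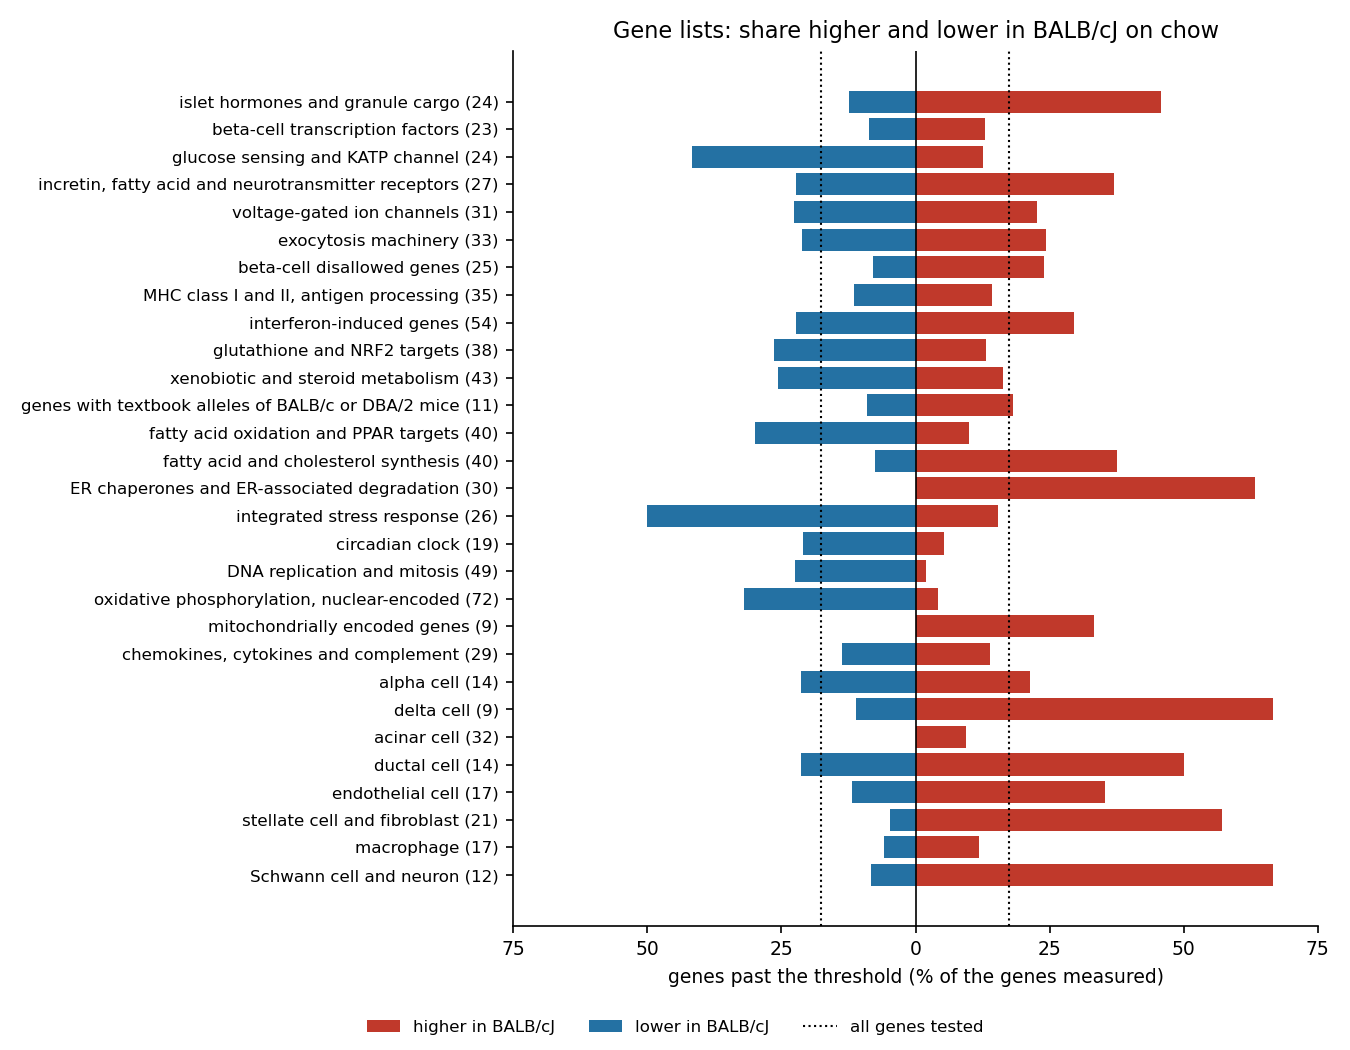
Share of the measured genes of each list with at least 9 of them (number in brackets, horizontal axis in percent) that were higher (to the right of 0) or lower (to the left) in BALB/cJ than in DBA/2J islets on RC at an adjusted p under 0.05. Dotted lines mark the 17.4% and 17.7% over all genes, and the ER list has 19 of 30 higher and 0 lower.

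The strain difference was also taken at each day. At day 5, 1429 genes (9.78%) were higher and 1626 (11.1%) lower in BALB/cJ, at day 13 there were 1909 (13.1%) and 2106 (14.4%), and at day 33 there were 1207 (8.26%) and 1130 (7.74%), where DBA/2J had 3 libraries. The day 13 total of 4015 was 2574 without DBA/2J day 13 replicate 3. Of the 5113 genes called over the days, 4677 (91.47%) had 1 sign at all 3 days, and 1243 genes were called at each day. In the test of the difference itself, 0 genes (0%) differed between day 33 and day 5 by limma, although 1471 had an unadjusted p under 0.05. Between day 13 and day 5, 2 genes (0.0137%) did, with 2695 at an unadjusted p under 0.05. Cytip, an adaptor of immune cells, differed by -0.70 at day 5 and 2.09 at day 13. Its call was lost without the 2 libraries of high lymphocyte markers, BALB/cJ day 13 replicate 4 and DBA/2J day 5 replicate 4. Gm14403 differed by 5.94 at day 5 and 2.49 at day 13, where 3 of 4 DBA/2J libraries were high, at 0.36, 1.68 and 2.5, and the other was at -2.85, as against -3.54 to -2.47 at day 5. Without the 7 divided BALB/cJ libraries no gene was called between these days.

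On HFD, in other mice of both strains, 5130 genes (35.1%) were called, 2480 higher and 2650 lower in BALB/cJ. Of the genes called on RC, 3997 were called with the same sign on HFD and 0 with the opposite sign, which is 78.17% of the calls on RC and 77.91% of those on HFD. Of the 707 genes with a difference of at least 1 on RC, 702 were called with the same sign on HFD, and the median ratio of the HFD to the RC difference over the 707 was 0.986. Folr1 differed by 5.2 on HFD, Stab2 by -6.26, Kcnj5 by -6.34 and Npy by 2.95. The strain difference on HFD minus that on RC passed for 0 genes (0%) by limma, with 472 at an unadjusted p under 0.05. Without the 7 divided libraries it passed for 4, the stearoyl-CoA desaturase Scd1 (1.25), the triglyceride synthase Dgat2 (1.12), Pttg1, which guards chromatid separation (-1.06), and Nkiras1 (-0.45). Scd1 was at 6.67 to 6.97 log2 CPM in BALB/cJ HFD day 5 replicates 1 and 2, and at 4.62 or less in the other 22 BALB/cJ libraries. With the 7 removed, these 2 libraries make up the whole BALB/cJ HFD day 5 group.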

How the data were processed

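Islet RNA of 23 mice (12 BALB/cJ and 11 DBA/2J on RC) was compared. Alignment and counting tools in the submitters' processing notes are STAR (2.5.3a) and HTSeq (0.9.1), next to edgeR, given without its version, and the build is GRCm38. Per the labels' protocols, libraries were stranded and poly(A)-selected; the strand setting of the counting is not given in the sources used here. The deposited table holds log2 CPM normalized by the authors for 14604 genes and 69 libraries, while 3 of the 72 samples lack a column, 1 of them DBA/2J on RC at day 33, and were left out. Where the series text repeats day 13, the sample labels have day 33 and were followed. Whole reads were recovered from 100% of the values, within 0.05 reads. They served for depth, read shares and the voom alternatives, and a count model was not fitted. Replicates of a group differed by more than counting error, with chi-square per degree of freedom of 4.81 to 59.9 over 33 pairs.

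A linear model with 1 mean for each of 18 groups of strain, diet and day was fitted by limma (3.58.1, under R 4.3.3), using lmFit and eBayes with trend, on the 69 libraries together. All groups were kept for the estimate of the spread. Contrasts averaged the strain difference over the 3 days, took it per day and on HFD, and compared days and diets. Tests were two-sided, with p-values adjusted by the Benjamini-Hochberg method over all genes and 0.05 as the threshold. Values after ± are SE for differences and SD for group means. Read shares were tested by exact permutation within days (171500 arrangements). Lists are described by counts and medians, with no test of a list. Their counts over the days stand beside 17.4% higher and 17.7% lower over all genes. The script was tested on simulated data.

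The comparison, the 33 gene lists and 15 symbol families were chosen with earlier results of these data known. Named genes are the 12 highest and 12 lowest differences and the 10 lowest p among called genes with 1 sign at all days, without predicted, non-coding and pseudogenes and the lowest 25% by level, the lowest p of each list (4 members at most), small families, and fixed genes. Other list members, and genes that divide libraries or neighbour a named gene, were named after their values were seen. Nnt, a fixed gene, was not analysed here, and some genes that the rule names are not reported here. Of 14604 identifiers, 14589 matched GENCODE mouse release 21 (GRCm38), the source of coordinates. Promoters come from RefSeq windows on GRCm38.p6.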

Additional observations from a re-analysis of the deposited data

Results flagged for a closer look

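Of 40 values tested for 1 library far from the others of its group, 3 stood out, where chance gives about 1 in 20. In BALB/cJ islets on RC at day 33, 1 library had a mean level of lymphocyte markers of 1.39 log2 CPM and 1 a mean level of macrophage markers of 2.79 log2 CPM, each the highest of its 4. In DBA/2J islets on RC at day 13, 1 library had a mean level of stellate cell and fibroblast markers of 4.1 log2 CPM, the highest of its 4.

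The strain difference at day 13 differed from that at day 5 for 2 genes, each by the limma test of that difference with Benjamini-Hochberg adjustment. For Cytip the change was 2.78 ± 0.55 (SE, adjusted p = 0.0311), and for Gm14403 it was -3.45 ± 0.64 (adjusted p = 0.0202). Cytip was not called without the 2 libraries of high lymphocyte markers, 1 of BALB/cJ at day 13 and 1 of DBA/2J at day 5. In Gm14403, BALB/cJ libraries stayed at 2.74 to 3.32 log2 CPM over the 3 days. For the DBA/2J libraries, day 13 cannot be told apart from whatever the numbers in the sample titles mark.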

How the results depend on the processing

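Over single-library removals, 4706 to 5163 genes were called between strains on RC over the days, 2478 to 2862 at day 5, 2574 to 4549 at day 13, 1795 to 2388 at day 33 and 4780 to 5378 on HFD. Other settings gave 3771 to 6439 over the days. With weights per library, 4805 were called at day 5 and 3528 at day 33. At least 1 on the log2 scale left 707 genes, and the ratio of the highest to the lowest share called on a chromosome was then 2.26 in place of 1.41. The difference between days 33 and 5 had 0 to 3 calls over removals, 318 with weights and 1 with only the 23 RC libraries in the model. That between days 13 and 5 had 0 to 5 over removals, 1049 with weights, 1 without the 2 libraries of high lymphocyte markers, and 0 with only the 23 RC libraries, either voom fit, log2(CPM + 1), a mean level over 2, or without the 7 divided BALB/cJ libraries. That between diets had 4 without the 7 and 0 in every removal of 1 library. The insulin share differed by 1.4 to 2.38 points over removals, with exact permutation p of 0.0167 to 0.154, under 0.05 in 5 of them (2.31, 2.17, 2.19, 2.38 and 2.35 points without BALB/cJ day 33 replicate 3, BALB/cJ day 13 replicate 2 or 4, DBA/2J day 13 replicate 3 or DBA/2J day 33 replicate 2), and the mitochondrial share by -0.102 to -0.017. Of 165 called genes named, 34 lost the call in some setting, 4 of them by removal of 1 library (mt-Nd1, Slfn5, Slfn9, Bhlha15), and 0 reversed. Of the named genes that did not pass, 10 were called in some setting. Gbp3, Gbp5, Myo5a, Prkdc and H2-K1 were so by removal of 1 library, and Nkx6-1, Pdx1, Slc2a2, Hsp90b1 and Mki67 only in other settings. The cause of these changes was not tested. The planned edgeR and DESeq2 fits and TMM scaling were not run, since the deposited values are log2 CPM, and voom on recovered reads with other library sizes, added after seeing the data, took their place. Removal of the 7 divided and of the 2 lymphocyte-rich libraries was also chosen after seeing the data. The numbers ending the title codes recur in both strains for 4 pairs of libraries on RC at 1 day, whose deviations from their group means correlated at -0.105 to 0.236, so the numbers were not taken to pair the samples. With the number as a replicate block (a random effect, added after seeing the data), 5081 genes were called over the days, 3054 at day 5, 4023 at day 13, 2301 at day 33 and 5088 on HFD. Depth of 12984004 reads or more per library limits genes near the floor of -3.54 log2 CPM.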

Other observations

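Other gene families, defined by their gene symbols, were counted in the same fit, where 17.4% of all genes were higher and 17.7% lower in BALB/cJ. Of 55 protocadherins, adhesion molecules best known from neurons, 19 were higher and 8 lower, and of 20 serine protease inhibitors 8 were higher and 5 lower. Of 354 zinc finger genes 59 were higher and 38 lower, of 237 solute carriers 52 and 42, and of 41 tripartite motif genes 4 and 4. Of 20 cytochromes P450 4 were higher and 4 lower, of 16 glutathione S-transferases 3 and 4, of 22 MHC genes 4 and 2, of 14 hosts of small nucleolar RNAs 1 and 2, of 4 olfactory and vomeronasal receptors 1 and 1, and of 2 kallikreins 0 and 0. Of the small marker lists, PP and epsilon cells had 3 of 6 genes higher and 0 lower, lymphocytes 1 higher and 1 lower of the 5 measured, and adipocytes 2 and 0 of the 3 measured.

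Besides the genes that divide the BALB/cJ libraries, a gap of at least 2 log2 units with no library between, and at least 2 libraries on each side, was found in BALB/cJ for Fosb, an immediate early gene (3 of 24 libraries high), and Scd1 (2 of 24 high). In the 22 DBA/2J libraries of both diets it was found for the antibody genes Jchain and Igkc (3 high each) and Ighm (2 high), beside Gm14403 (6 high).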
